A study of Mus musculus with 2 samples.

Results

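Glutathione is the most abundant small thiol of animal cells, and the 10 genes described here make it, supply its cystine, keep it reduced and use it. They were Gclc, Gclm and Gss for synthesis, Slc7a11 and Slc3a2 for cystine supply, Gsr for reduction, Glrx and Glrx2 for the glutaredoxins, and Gpx1 and Gpx4 for the peroxidases. All 10 were found among the 19938 genes with a probe set (a group of probes for 1 transcript) that the platform annotation assigns to a single gene symbol. Gpx4 had 2 such probe sets, which were averaged, and the other 9 genes had 1 each.

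The cells were KSL cells, marrow cells sorted as positive for c-Kit and Sca-1 and negative for lineage markers, and so rich in blood stem cells and early progenitors. A pool from mice lacking Nrf2 (Nrf2-/-) was set against a pool from Nrf2+/+ mice, all young and healthy, of the C57BL/6J background, kept in a germ-free facility and 8 to 10 weeks old; the labels name no treatment. Marrow of 5 mice per genotype was pooled before sorting, and RNA of each pool was hybridised to 1 array, so each gene had 1 knockout and 1 wild-type value and no value had a replicate error. No test between genotypes was possible and no p-value is given. The series' title asks what NRF2 does for the survival of haematopoietic stem cells. The deleted part of the gene is not named in the labels.

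As background, glutathione is built from glutamate, cysteine and glycine in a pair of steps, of which the first, run by the GCLC and GCLM proteins, sets the pace. Peroxidases and glutaredoxins oxidise it, and glutathione reductase turns it back with NADPH. NRF2, encoded by Nfe2l2, binds antioxidant response elements with a small MAF partner, and Gclc, Gclm, Gsr and Slc7a11 are textbook targets. Blood stem cells are known to be sensitive to oxidants.

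Promoter sequences are shown for the 3 members in which a searched motif was found in the 250 bases before a RefSeq start. They are from the RefSeq promoter table (build GRCm38.p6), which matched 8 of the 10 members, all but Gclc and Gsr, with 15 windows. The searched motifs were the core of the antioxidant response element, TGACNNNGC, the AP-1-like TGACTCA, which such elements can contain, and TGATGNAA, a form of the site of ATF4, a factor of the amino acid response. Both strands were searched; the first and second motifs share their first 4 letters, and no matches overlapped in the printed windows. Capitals mark the matched letters, 5′ to 3′ on the strand of the gene. Gclm (chr3:122245307-122245556, plus strand) held the antioxidant core on the reverse strand, 134 to 126 bases before its start. Glrx (chr13:75839635-75839884, plus strand) held the AP-1-like letters 98 to 92 bases before its first listed start. Slc7a11 (chr3:50443614-50443863, minus strand) held the ATF4 letters on each strand, 66 to 59 and 47 to 40 bases before its start.
Gclm: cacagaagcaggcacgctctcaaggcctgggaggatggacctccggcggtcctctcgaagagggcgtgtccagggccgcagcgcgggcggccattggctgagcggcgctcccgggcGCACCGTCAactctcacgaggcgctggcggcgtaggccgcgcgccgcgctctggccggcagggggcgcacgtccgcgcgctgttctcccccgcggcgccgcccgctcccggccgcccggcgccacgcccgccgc
Glrx: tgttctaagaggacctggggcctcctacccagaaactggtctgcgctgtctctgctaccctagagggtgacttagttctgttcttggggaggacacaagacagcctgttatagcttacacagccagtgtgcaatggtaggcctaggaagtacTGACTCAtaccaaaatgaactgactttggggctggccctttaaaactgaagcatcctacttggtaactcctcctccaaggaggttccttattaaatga
Slc7a11: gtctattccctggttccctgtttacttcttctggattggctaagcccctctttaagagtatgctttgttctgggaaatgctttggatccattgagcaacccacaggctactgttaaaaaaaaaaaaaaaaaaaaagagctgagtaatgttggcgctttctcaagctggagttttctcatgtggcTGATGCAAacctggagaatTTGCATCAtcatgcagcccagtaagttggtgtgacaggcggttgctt
Of the 32851 windows in the table, 10.2% held the antioxidant core, 4.46% the AP-1-like letters and 3.45% the ATF4 letters. Among the 15 member windows, 1 held the antioxidant core, 2 the AP-1-like letters and 1 the ATF4 letters, each motif in 1 of 8 genes. A match is a description of the letters and not a binding site, and a window without one says nothing about a factor acting from elsewhere.

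Levels are log2 intensities, and differences are given as log2 knockout minus wild type. In the knockout pool 9 of the 10 genes were lower and 1 was higher, where 46.9% of all genes lay below 0. The median difference of the 10 genes was −0.22, beside 0.01 over all genes measured. By a size of at least 1.5-fold, 2 genes were lower, against 3.15% of all genes, and 1 was higher, against 1.74% of all genes; the other 7 lay between −0.31 and −0.06. No member reached a 2-fold difference in either direction, as did 0.602% of all genes downwards and 0.311% upwards. A level filter was set at the median over genes of the mean of both arrays, 6.57, and 9 members passed it. All 9 were lower, where 52.9% of genes past the filter lay below 0. Their median was −0.23, beside −0.02 for genes past the filter. By the 1.5-fold size 2 of them were lower, against 4.3% of genes past the filter. For scale, the 515 genes with exactly 2 probe sets past this filter gave an SD of 0.31 for the difference of 1 probe set, or a robust estimate of 0.17 taken from their median deviation. It is an error of probes only; mouse, sort and amplification spread were not measured. In that array 10 of 11 neutrophil markers were also lower, with a median of −1.64; in bulk RNA, fewer cells of a type and less RNA per cell cannot be told apart, and the part of such cells in the members' differences was not tested.

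**Figure D1:**
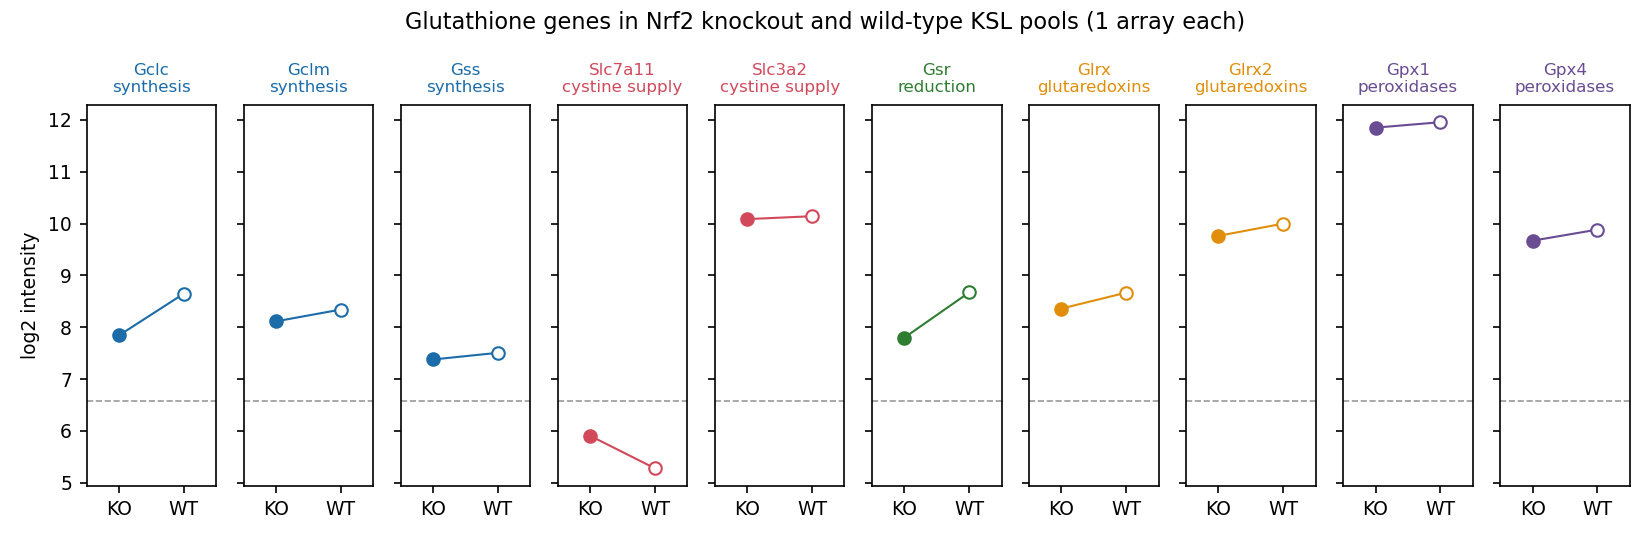
Log2 intensity of each of the 10 genes in the knockout pool (KO, filled, left) and the wild-type pool (WT, open, right), 1 array each, coloured by role, with the level filter of 6.57 as a dashed line. The steepest lines are those of Gsr and Gclc, lower in the knockout pool, and of Slc7a11, higher in it; heights of different genes are not comparable, because probes differ in affinity.

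Synthesis genes came out unequal. Gclc, the catalytic subunit of glutamate-cysteine ligase, measured 7.84 in knockout cells, against 8.65 in wild-type cells. The difference of −0.80 put the knockout level at 57.3% of wild type, at rank 270 from the lowest of 19938 genes. Among the 500 genes nearest to Gclc in mean level, whose differences had an SD of 0.33, 11 were at least as low. Gclm, the modifier subunit that makes the ligase more efficient, measured 8.11 in knockout cells and 8.34 in wild-type cells, differing by −0.23, at 85.4% of the wild-type level. Its promoter window above carries the antioxidant core, as did 10.2% of all windows, while Gclc had no window to search. Of the 500 genes nearest to Gclm in mean level, 142 were at least as low. The catalytic subunit was therefore lower than its partner by 0.58 more on the log2 scale, beside an SD of 0.45, or 0.24 by the robust estimate, that probe-set error alone gives for the gap between a pair of genes. Gss, glutathione synthetase, which adds glycine in the last step, measured 7.38 in knockout cells and 7.51 in wild-type cells. Its difference of −0.13 was smaller than either estimate of the probe-set SD, and 177 of its 500 nearest genes were at least as low.

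Gsr, glutathione reductase, had the lowest difference of the 10. It measured 7.80 in knockout cells, against 8.67 in wild-type cells, differing by −0.87, which is 1.83-fold lower or 54.6% of the wild-type level. It stood at rank 207 from the lowest of 19938 genes, and 7 of its 500 nearest genes in level were at least as low. Gsr and Gclc differed from each other by 0.07, so their order is not resolved by these arrays. Their differences were 2.77 and 2.55 times the probe-set SD of 0.31. None of the 7 genes within 1.5-fold exceeded that SD, but 4 of them, Glrx, Glrx2, Gclm and Gpx4, exceeded the robust estimate of 0.17, so whether they stand clear of probe error depends on the estimate. Both estimates are for 1 probe set, while the Gpx4 value averages 2.

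The cystine exchanger gave the only higher value. Slc7a11 encodes xCT, the light chain that brings in cystine and sends out glutamate. It measured 5.90 in knockout cells, against 5.28 in wild-type cells, differing by 0.63, or 1.54-fold higher. Of its 500 nearest genes 2 were at least as high, and it ranked 277 from the highest among all genes. The difference was 1.99 times the probe-set SD of 0.31, but that SD came only from genes past the level filter. It was not estimated for genes as weak as Slc7a11. Both of its values lay under the level filter, so the signal was weak and the size less sure; no measure of background was used to say whether it was detected. Slc3a2, the heavy chain (CD98) that carries xCT and several other transporters to the cell surface, measured 10.09 in knockout cells and 10.14 in wild-type cells. The difference of −0.06 was the smallest of the 10.

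**Figure D2:**
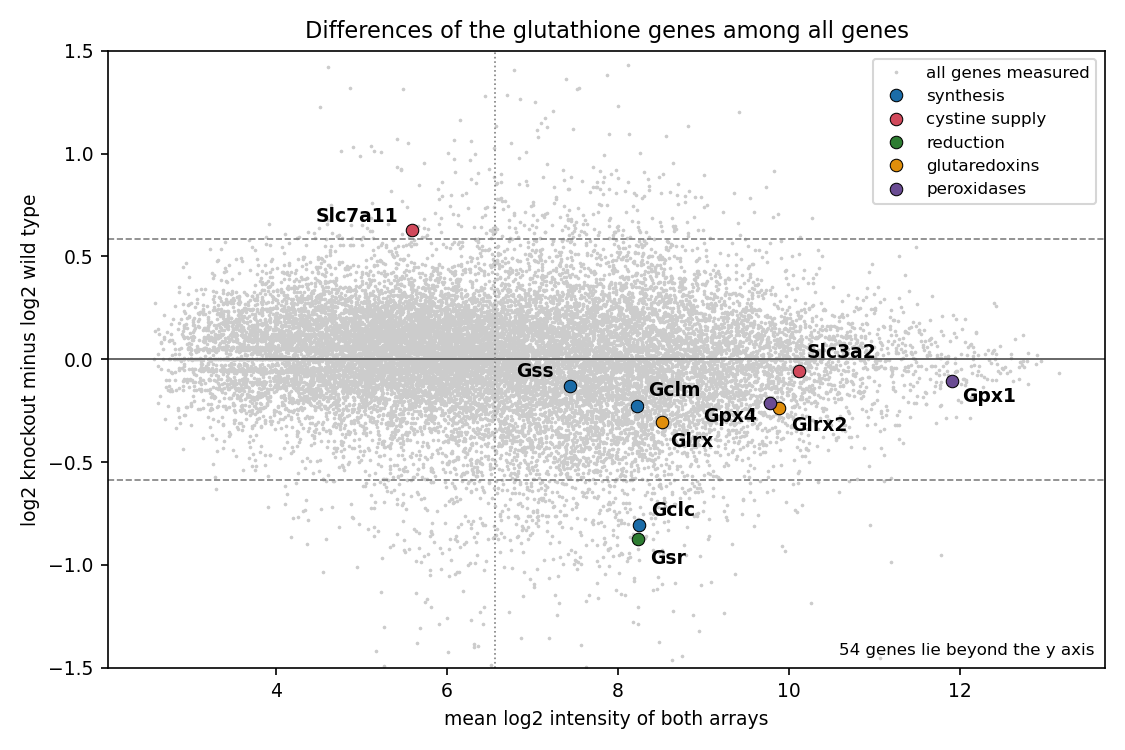
Log2 knockout minus log2 wild type against the mean log2 intensity of both arrays for all genes (grey) and the 10 glutathione genes (coloured by role); dashed lines mark 1.5-fold, the dotted line the level filter, and 54 genes lie beyond the y axis. Gsr and Gclc stand at the lower edge of the genes of their level and Slc7a11 at the upper edge of weaker ones, while the other 7 lie inside the scatter.

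Both glutaredoxins were slightly lower. Glrx, the cytosolic enzyme that takes glutathione off protein thiols, measured 8.36 in knockout cells and 8.67 in wild-type cells, differing by −0.31. That is 80.8% of the wild-type level, and 84 of its 500 nearest genes were at least as low. Glrx2, whose main form is mitochondrial and can bind an iron-sulfur cluster, measured 9.76 in knockout cells and 10.00 in wild-type cells. Its difference of −0.24 was 84.9% of the wild-type level, and 76 of 500 nearest genes were at least as low. Both differences were below the probe-set SD of 0.31 and above the robust estimate of 0.17.

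Both peroxidases of the set were slightly lower, Gpx1 by less than either estimate of the probe-set SD and Gpx4 by more than 0.17 but less than 0.31. These estimates are for 1 probe set, while the Gpx4 value averages 2, so they overstate its probe error. Gpx1, a selenoprotein that reduces hydrogen peroxide, measured 11.85 in knockout cells and 11.96 in wild-type cells, differing by −0.10, at 93% of the wild-type level. Gpx4, the selenoprotein that reduces lipid hydroperoxides inside membranes and so guards against ferroptosis, averaged 9.67 in knockout cells and 9.88 in wild-type cells. Its 2 probe sets gave −0.18, from 9.46 in knockout and 9.65 in wild-type cells, and −0.24, from 9.88 in knockout and 10.12 in wild-type cells. They had the same sign and a similar size, and no other of the 10 genes had a second probe set. Both read the same 2 pools on the same arrays, so they repeat the probes and not the samples. Of the 500 genes nearest in level, 127 were at least as low as Gpx1 and 93 at least as low as Gpx4.

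The rest of the pathway was read from 8 lists of 56 genes around the members. Of these, 50 were measured and 28 passed the level filter, 19 with a lower and 9 with a higher value in the knockout pool. Their median was −0.06, beside −0.02 for all genes past the filter, of which 52.9% lay below 0. By the 1.5-fold size 1 of the 28 was lower, against 4.3% of genes past the filter, and 0 were higher, against 2.34%. The list of enzymes that clear aldehydes with glutathione had all 4 of its genes lower, with a median of −0.49. In it Hagh, glyoxalase II, which releases glutathione at the end of methylglyoxal removal, measured 6.53 in knockout cells and 7.24 in wild-type cells, differing by −0.71, with the knockout value just under the filter level. The other 3, chosen for naming after their values were seen, were the formaldehyde-pathway hydrolase Esd at −0.56, the dehydrogenase Adh5 at −0.42 and glyoxalase I, Glo1, at −0.34.

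Genes of selenoprotein synthesis, which the peroxidases need for their catalytic residue, were mostly above 0, where both peroxidases were below. Of 6 measured, 5 were higher and 1 was lower, where 46.9% of all genes lay below 0. The list median was 0.13, with no gene at 1.5-fold. Secisbp2, which binds the selenocysteine insertion element, measured 8.60 in knockout cells and 8.17 in wild-type cells, differing by 0.43. Sephs2, which makes the selenium donor, differed by 0.37, and Pstk, a kinase of the selenocysteine transfer RNA, by 0.17. The 6 measured peroxidases outside the members all lay under the level filter, with differences of −0.16 to 0.57.

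Light chains that can pair with Slc3a2 differed little by median, −0.05 over 5 genes. Slc7a5, the large neutral amino acid light chain LAT1, measured 9.80 in knockout cells and 9.34 in wild-type cells, differing by 0.46. Slc7a8 and Slc7a6 differed by −0.16 and −0.13. In the cysteine and glutamate supply list, with 7 of 11 genes measured and a median of −0.03, the glutamine importer Slc1a5 differed by 0.46 and glutamate dehydrogenase, Glud1, by −0.38.

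All 6 genes of glutathione transport were below 0, beside 46.9% of all genes, but with a median of only −0.09 and no member at 1.5-fold. The exporter Abcc4 measured 7.47 in knockout cells and 7.80 in wild-type cells, differing by −0.33, while Slc25a39, the mitochondrial glutathione carrier, differed by −0.12 and Slc25a11 by −0.06. Genes of glutathione breakdown had a median of −0.03 over 12 measured. The leucine aminopeptidase Lap3 measured 8.35 in knockout cells and 7.82 in wild-type cells, differing by 0.54, and Ggt5 and Ggct differed by −0.17 and −0.10. Among 4 glutaredoxin relatives, Txndc12, a thioredoxin-fold protein of the endoplasmic reticulum, differed by 0.56, Glrx5 by −0.06 and Glrx3 by less than 0.01.

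**Figure D3:**
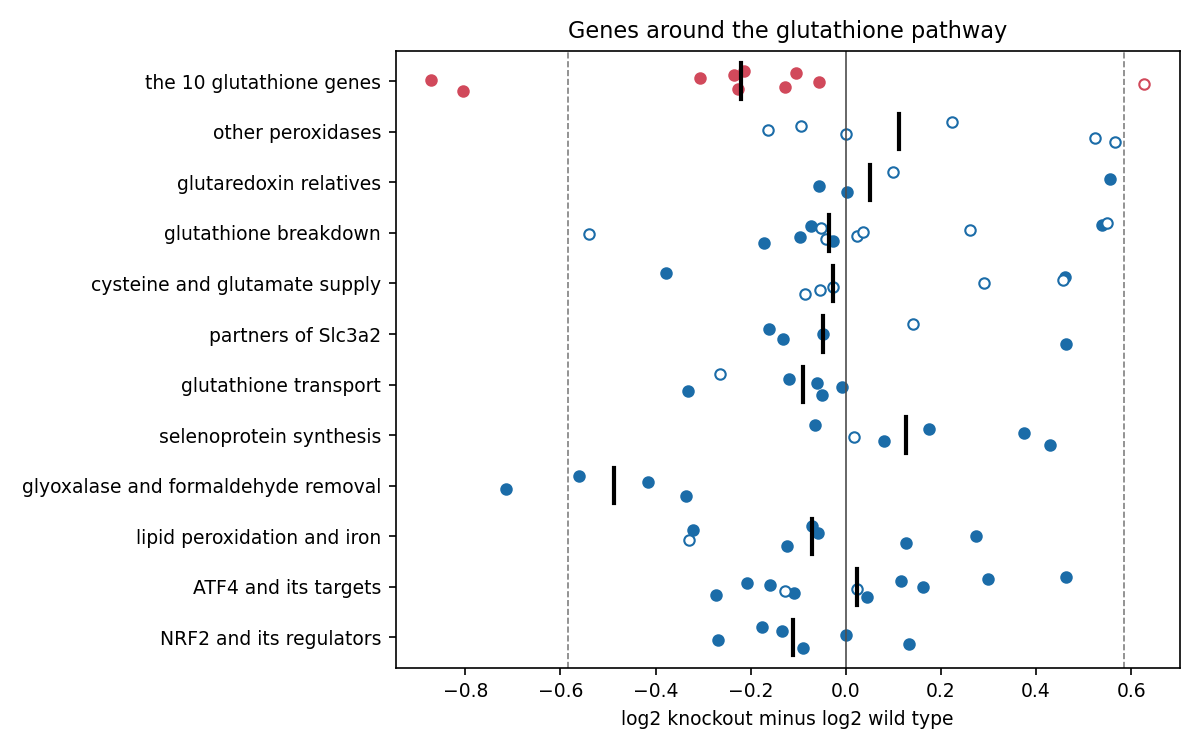
Log2 knockout minus log2 wild type of each measured gene (points; filled past the level filter, open under it) in the 10 glutathione genes and the lists around them, with list medians as black bars and 1.5-fold as dashed lines. The 10 genes have a median of −0.22 and the aldehyde-clearing list one of −0.49, and the other lists lie between −0.11 and 0.13.

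The targeted gene and its regulators differed little. Nfe2l2 measured 9.07 in knockout cells and 9.16 in wild-type cells, differing by −0.09, and a probe set outside the deleted part would not check the genotype. Bach1, a repressor at antioxidant elements, differed by −0.27, the small MAF gene Mafk by −0.18 and Maff by −0.13, with a list median of −0.11 over 6 genes.

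The same arrays differed in markers of mature myeloid cells, which a KSL gate should remove. The gate gene Kit measured 11.21 in knockout cells and 10.93 in wild-type cells, differing by 0.28. Among stem cell genes, Cd34 differed by 0.14, Mecom by −0.45 and Slamf1, under the level filter, by 0.71. Sca-1 was not checked, because no probe set carried the symbol of its gene, Ly6a, alone or with other symbols. Of 11 neutrophil markers, all but Ly6g were at least 1.5-fold lower, against 3.15% of all genes. The summed intensity of the list on the linear scale was 6803 in knockout cells and 16179 in wild-type cells. The largest differences were those of Retnlg at −2.66, Lcn2 at −2.10, Mmp8 at −2.00 and Chil3 at −1.78. The knockout values of Retnlg, 5.36, and Mmp8, 5.74, were under the filter level, so both passed through their wild-type values. Ly6g, singled out after its values were seen, was under the level filter in both pools. Of 10 monocyte and macrophage markers 9 were lower, where 46.9% of all genes lay below 0. Their sums were 1857 in knockout cells and 2338 in wild-type cells. The lowest differences were in Ccl6 at −1.52, Ms4a6c (2.01-fold lower), Ccr2 at −0.99, which was under the level filter, and Fn1 at −0.80. The knockout values of Ccl6, 6.51, and Fn1, 6.41, were also under the filter level. The remaining marker of this list, Cd68, singled out after its values were seen, measured 9.31 in knockout cells and 8.68 in wild-type cells, 1.55-fold higher. Intensities have no true zero, so no marker can be said to be absent. Erythroid, B lineage and T and NK markers had medians of 0.02, −0.16 and −0.13 over 6, 5 and 5 genes measured, most of them under the level filter. Over the 2, 1 and 2 genes past the filter the medians were −0.36, −0.79 and −0.30. Among these, the red cell carbonic anhydrase Car1 at −0.75 and the B cell receptor component Cd79b at −0.79 were at least 1.5-fold lower, and Nkg7 of the T and NK list differed by −0.48. The other erythroid gene past the filter, Car2, named after its value was seen, differed by 0.03. Ebf1 of the B lineage list, under the filter, differed by 0.56. Of the erythroid genes 2 were lower and 4 higher, of the B lineage genes 3 and 2, and of the T and NK genes 5 and 0.

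**Figure D4:**
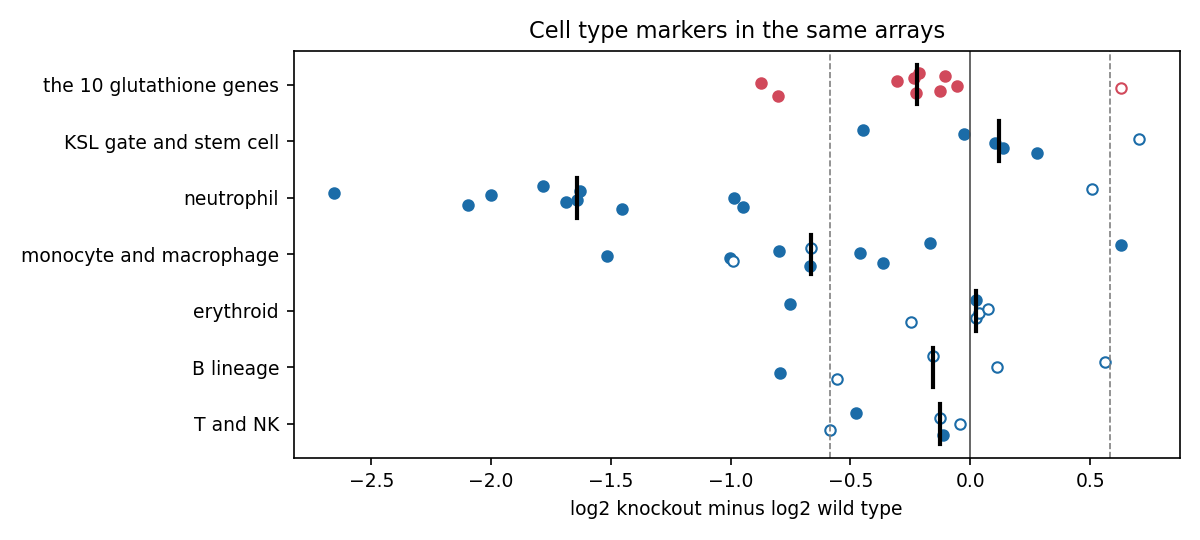
Log2 knockout minus log2 wild type of each measured marker gene by cell type (points; filled past the level filter, open under it), under the 10 glutathione genes, with medians as black bars and 1.5-fold as dashed lines. The neutrophil markers have a median of −1.64 and the monocyte and macrophage markers one of −0.67, beside 0.12 for the KSL gate and stem cell genes.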

How the data were processed

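Total RNA of 2 sorted KSL pools, 1 per genotype, was isolated with a Qiagen kit, amplified with NuGEN Ovation reagents and measured on Mouse Gene ST 1.0 arrays of Affymetrix, per the labels' protocols and design text. The authors deposited a log2 intensity for every probe set on each array, the base being inferred from the range, 2.40 to 13.79. Partek is named in the submitters' processing notes, with no role; the sources used here do not give background correction or normalization. Sorted, the arrays' values lay within 0.0866 of each other, so a shift of all genes one way could not be seen.

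Of 28853 probe sets, 21789 had 1 gene symbol in the platform annotation, 1621 several and 5443 none. Those with 1 symbol were averaged per gene, with no further normalization. All 10 members matched RefSeq by Entrez ID, with 0 symbols changed. Precision is limited by the number of arrays, and genes were counted by size (1.5-fold, 0.58 on the log2 scale). Named genes were every member, Nfe2l2, list genes at least 1.5-fold different past the level filter or otherwise up to 3 with the largest differences, and up to 4 per marker list; exceptions are said to be so. The members and lists were chosen with earlier results of these data known. The procedure was tested on simulated data. Computation used Python 3.11.15 with numpy 2.4.6, pandas 2.3.3, statsmodels 0.14.6 (loess fraction 0.3) and matplotlib 3.10.9.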

Additional observations from a re-analysis of the deposited data

How the results depend on the processing

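Median centring, quantile normalization, loess on mean level, the probe set with the highest mean, and probe sets averaged on the linear scale each kept the sign of all 10 differences. The last 2 could change only Gpx4, since the other 9 members had 1 probe set. The arrays' sorted values already lay within 0.0866 of each other, which left the normalizations little to change. Stability under these settings was therefore largely built in and says nothing about mouse, sort or amplification spread. Gsr ranged from −0.88 to −0.85, Gclc from −0.81 to −0.78 and Slc7a11 from 0.59 to 0.63, and the widest range, that of Gpx4, was 0.05. The members' median stayed between −0.23 and −0.20 in these settings, over members past the level filter and without Gsr, and their mean was −0.23. The count of members at least 1.5-fold lower was 2 in each of these settings that gave a count, and 0 at a size of at least 2-fold. No paired analysis was possible because each genotype had 1 array, and for the same reason no array could be left out. Weak signal limits Slc7a11, Hagh and the peroxidases outside the members.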

Other observations

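Genes of lipid peroxidation and iron handling, the setting in which Gpx4 acts, were close to level. All 7 were measured, 5 lower and 2 higher in the knockout pool, with a median of −0.07 and none at 1.5-fold. The ferritin light chain Ftl1 measured 10.48 in knockout cells and 10.80 in wild-type cells, differing by −0.32, the transferrin receptor Tfrc differed by 0.27 and the phospholipid acyltransferase Lpcat3 by 0.13.

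The list of ATF4 and its targets was read beside Slc7a11, whose promoter window holds the ATF4 letters on each strand. Its 11 genes had a median of 0.02, with 5 lower and 6 higher and none at 1.5-fold. Slc7a5 differed by 0.46, the mitochondrial folate enzyme Mthfd2 by 0.30 and asparagine synthetase, Asns, by −0.27. Atf4 itself, named after its value was seen, measured 9.80 in knockout cells and 9.75 in wild-type cells.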
